A study of Bos grunniens and Bos grunniens x Bos taurus with 2 samples.

Results

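The genes examined here are those of the cell cycle and of DNA replication in the testis of yak and cattle-yak. Members were chosen by symbol, with earlier results of these data known. They were the cyclin (CCN), cyclin-dependent kinase (CDK), cell division cycle (CDC), minichromosome maintenance (MCM), origin recognition (ORC), GINS and replicative polymerase (POLA, POLD, POLE) genes, together with PCNA and WDHD1. The symbol rule found 93 of the 26961 features in the count tables, of which 15722 carried a symbol. By role, 12 members belong to origin recognition and licensing, 14 to the replication fork, 6 to the G1 and G1/S phases, 6 to the G2 and M phases, 7 to the anaphase-promoting complex (APC/C) and mitotic exit, and 11 to transcription and splicing. A further 21 are other cyclins, kinases and kinase partners, 7 are CDC42 and its effectors, 8 carry symbols taken by the rule but with other roles, and 1, MCM9, acts in recombination. All 93 had at least 1 UMI (unique molecular identifier, a counted RNA molecule) in each library, and together they held 0.397% of the UMIs of the yak library and 0.342% of those of the cattle-yak library.

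In a dividing cell, the origin recognition complex and CDC6 load the MCM helicase on DNA in G1. The kinase CDC7, with CDC45, the GINS complex and WDHD1, turns the loaded helicase into a moving fork, at which PCNA and the polymerases copy DNA. D-type and E-type cyclins drive entry into S phase. A-type and B-type cyclins with CDK1 drive G2 and M, and the APC/C with CDC20 ends M phase by marking proteins for degradation. In the testis, spermatogonia (SPG) divide by mitosis, spermatocytes (SPC) copy their DNA a last time before meiosis, and spermatids (SPT) no longer replicate. CCNA1 is a cyclin A known for its use in male meiosis, and the hybrid of cattle and yak is known for male sterility.

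Testis of sexually mature Bos grunniens (yak, 1 animal) and of sexually mature Bos grunniens x Bos taurus (cattle-yak) was each captured as 1 library of single cells, with no treatment. For the yak library, 1127 barcodes carry the germ cell types of the study, namely SPT, Late-SPC, Early-SPC, SPG and spermatogonial stem cells (SSC). The cattle-yak library has no such annotation here, and the number of cattle-yak animals is not given in the sources used here. Both libraries carry a germ cell label, whereas whole testis was dissociated and most cells in either library fell in clusters that did not carry germ cell markers.

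Deposited cells numbered 11991 for yak (60816600 UMIs, median 2533 a cell) and 8930 for cattle-yak (43774841 UMIs, median 3155 a cell). Mitochondrial genes took 13.1% of the UMIs of the yak library and 22.2% of those of the cattle-yak library, and 24 barcodes occurred in both. Germ-like cells, named from marker genes after clustering without any member, numbered 1747 in the yak and 331 in the cattle-yak library. Of these, 412 and 219 were deep cells, with more genes or UMIs than 2 standard deviations above the library mean, which the limits of the study leave out. Levels are summed UMIs of a cell group scaled to counts per 1000000 UMIs (CPM) with exact Poisson 95% intervals in square brackets, which cover counting error only. A sum is weighted towards the deeper cells of its group. Log2 ratios have 1 CPM added on both sides, and a member was counted as higher or lower at a difference of at least 2-fold with at least 20 summed UMIs over both sides. Intervals of single ratios are those of the plain ratio of counts. With 1 library per group there was no replicate and no test, and a comparison of the libraries compares those libraries, not the crosses. Since UMIs were counted near the 3′ end of transcripts, levels of different genes are not compared.

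Across the germ types of the study, the 26 replication members (licensing and fork together) were highest in Early-SPC, next in SPG, and lower in SSC, Late-SPC and SPT. Their summed level was 921 CPM [775–1086] in SSC, 1618 CPM [1519–1721] in SPG, 2251 CPM [2080–2432] in Early-SPC, 768 CPM [692–851] in Late-SPC and 468 CPM [390–556] in SPT. Intervals of SSC and Late-SPC overlapped, and those of the other types did not, although they do not cover the spread between cells. Against the somatic cells of the same library, at 334 CPM outside a small TOP2A-high cluster, the log2 ratio was 1.46 in SSC, 2.28 in SPG, 2.75 in Early-SPC, 1.20 in Late-SPC and 0.49 in SPT. Within SSC, WDHD1 alone accounted for 62 of 141 replication UMIs. Without WDHD1 the log2 ratio of SSC to SPG went from −0.81 [−1.08 to −0.56] to −1.24 [−1.59 to −0.91], and that of SSC to somatic cells to 0.67.

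**Figure D1:**
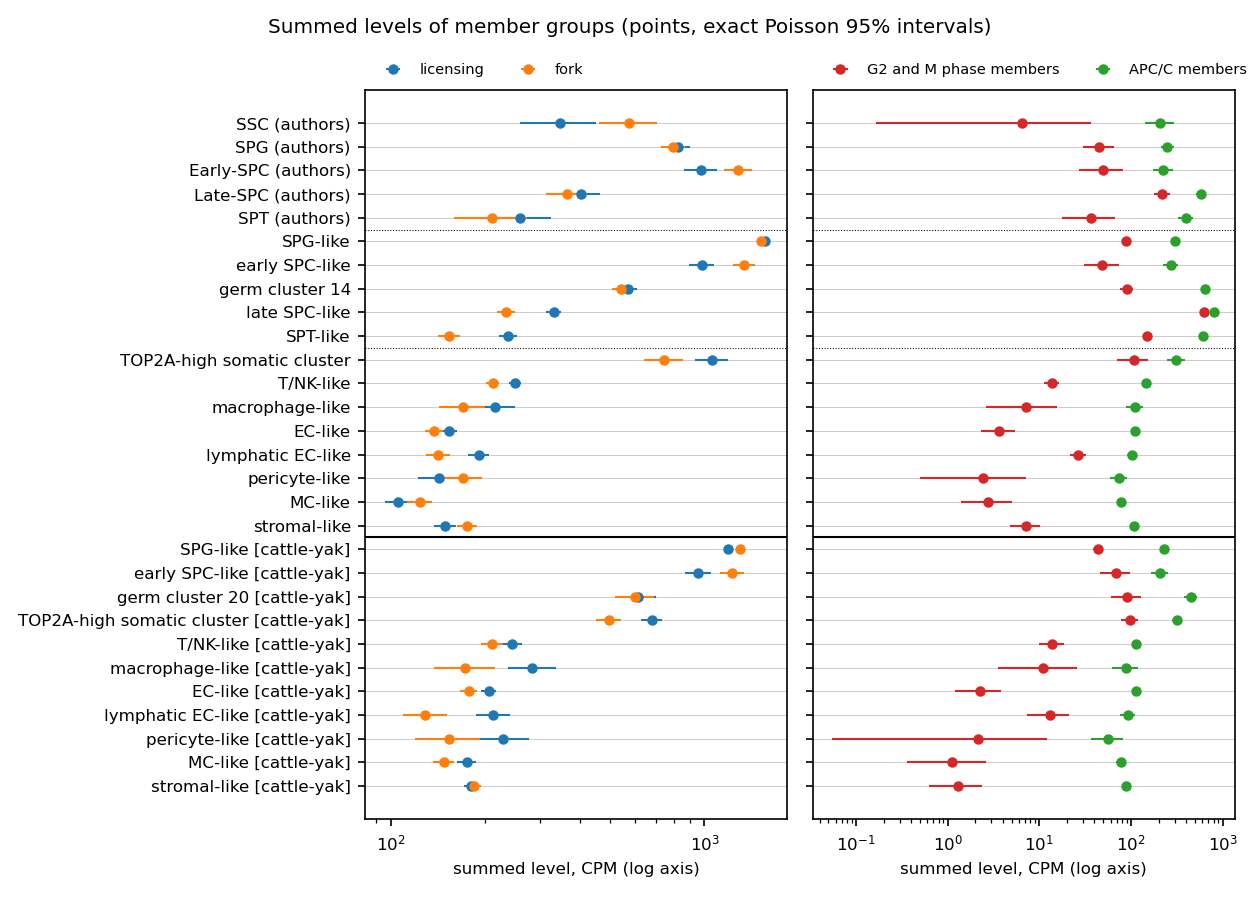
Summed levels in CPM (log axis) of licensing and fork members (left) and of G2 and M phase and APC/C members (right) in the germ types of the study and in the clusters of both libraries, as points with exact Poisson 95% intervals. Licensing and fork members reach their highest sums in the yak SPG-like cells (1563 and 1513 CPM), whereas G2 and M phase members reach theirs in the late SPC-like cells (624 CPM). Most of the latter sum is CCNA1.

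The study's SPG type joins 2 clusters that differed in these genes. Its cluster 4 (161 cells) had 2300 CPM of replication members, 583 CPM of WDHD1 and 749 CPM of TOP2A, the topoisomerase of dividing cells. In its cluster 1 (325 cells) the same values were 946, 215 and 183 CPM. The Late-SPC type likewise joins a cluster 3 with 560 CPM of replication members and 280 CPM of CCNA1, and a cluster 7 with 1113 CPM of replication members and 50.1 CPM of CCNA1. Types were made by the study from expression in these same cells, so that all differences between them are descriptions.

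Among licensing members, subunits of the MCM helicase did not share 1 pattern. MCM3 had 6.53 CPM in SSC, 123 CPM in SPG, 38.6 CPM in Early-SPC, 21.0 CPM in Late-SPC and 18.4 CPM in SPT, so that SPG was higher than the other types pooled by a log2 ratio of 2.38 [1.78 to 3.12]. MCM2 (65.3, 196, 130, 39.9 and 3.68 CPM in the same order) also peaked in SPG, at a log2 ratio of 1.77 [1.35 to 2.24]. MCM7 (98, 155, 28.1, 86.1 and 47.9 CPM) was highest in SPG but lowest in Early-SPC, where its log2 ratio was −1.91. MCM6 showed another order, with 13.1, 69.5, 291, 23.1 and 7.36 CPM, and it was higher in Early-SPC than in the other types by 2.90 [2.43 to 3.44]. MCM5 varied least among the subunits, with 39.2, 115, 77.3, 71.4 and 25.8 CPM.

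CDC6, which loads the helicase, was highest in SPG at 29.1 CPM, from 18 UMIs, with a log2 ratio of 1.55. The origin recognition subunits split in the same way. ORC4 had 19.6 CPM in SSC, 22.6 CPM in SPG, 232 CPM in Early-SPC, 69.3 CPM in Late-SPC and 55.2 CPM in SPT, a log2 ratio of 2.41 [1.92 to 2.95] for Early-SPC. ORC3 was also highest in Early-SPC (112 CPM, log2 ratio 2.24), whereas ORC2 was highest in SPG (27.5 CPM, 1.88). ORC6 was highest in Late-SPC (44.1 CPM, 1.79), and ORC1 in SPT (66.3 CPM, 1.76 [0.87 to 2.71]). ORC5 rested on 20 UMIs in all and had 0 in Early-SPC and in SPT, where a count of 0 allows up to 3 UMIs.

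At the fork, WDHD1, which ties the helicase to the polymerase that starts DNA strands, had 405 CPM [311–519] in SSC, 398 CPM [349–450] in SPG, 439 CPM [365–523] in Early-SPC, 50.4 CPM in Late-SPC and 29.5 CPM in SPT. The first 3 intervals overlapped, so that the level of WDHD1 did not separate SSC from SPG or Early-SPC at this depth. POLA1, the catalytic subunit of that polymerase, had 13.1 CPM in SSC, 66.3 CPM in SPG, 341 CPM in Early-SPC, 6.30 CPM in Late-SPC and 11.0 CPM in SPT, a log2 ratio of 3.36 [2.89 to 3.93] for Early-SPC. CDC45, a part of the active helicase, had 0 UMIs in SSC, 19.4 CPM in SPG, 186 CPM in Early-SPC, 16.8 CPM in Late-SPC and 11.0 CPM in SPT. Its Early-SPC log2 ratio of 3.54 [2.89 to 4.39] was the highest of the 60 members measured in that type.

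The remaining fork members were more even or peaked elsewhere. GINS2 was higher in Early-SPC (116 CPM, log2 ratio 2.00) and had 54.9 CPM in SPG and 6.53 to 11.0 CPM in the other types. PCNA, the clamp of the polymerases, was higher in Late-SPC (101 CPM, 1.32 [0.74 to 1.93]), with 59.8 CPM in SPG, 31.6 CPM in Early-SPC and 19.6 and 14.7 CPM in SSC and SPT. POLE4, an accessory subunit of polymerase epsilon, was higher in SPG (56.6 CPM, 1.23), and POLE3, another such subunit, in SPT (77.3 CPM, 1.17). CDC7 ranged from 11.0 to 32.7 CPM and POLD1, the catalytic subunit of polymerase delta, from 7.36 to 48.3 CPM, whereas POLD2, POLE, POLE2, GINS3 and GINS4 had at most 12 UMIs in any type.

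**Figure D2:**
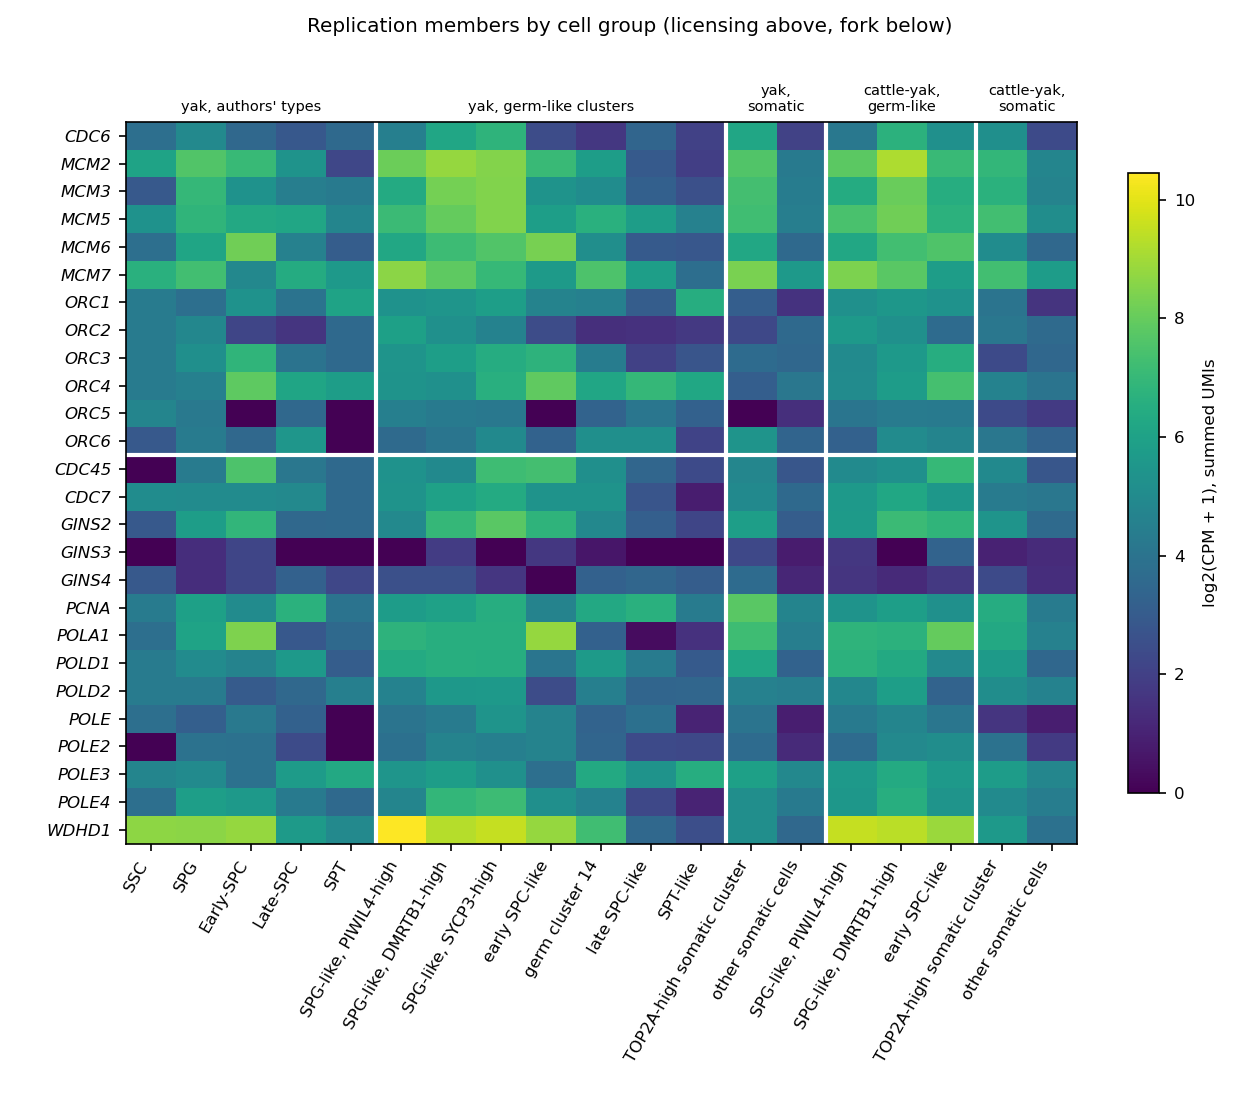
Heat map of log2(CPM + 1) of the 26 replication members (licensing above the horizontal line, fork below it) in the germ types of the study, the clusters of the yak library and those of the cattle-yak library. MCM6, ORC4, CDC45 and POLA1 are high in the Early-SPC and early SPC-like columns, and WDHD1 in all columns from SSC to Early-SPC. MCM3 is high in the SPG and DMRTB1-high SPG-like columns and lower in the PIWIL4-high ones. In the TOP2A-high somatic columns MCM3 is at 160 CPM in yak and 102 CPM in cattle-yak.

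Over all members, 60 had at least 20 UMIs over the typed germ cells, among them 22 replication members, and the other 33 were not counted. In SSC, 6 of 60 were higher and 23 lower than in the other types, where 11.3% and 39% of all 8116 measured genes were. In SPG, 12 were higher and 10 lower, beside 16.1% and 27.3% of all genes. In Early-SPC, 16 were higher and 27 lower, beside 18.9% and 47.8% of all genes, and the members higher were 10% of 60 in SSC, 20% in SPG and 26.7% in Early-SPC, the first below and the others above the share of all genes. In Late-SPC, 11 were higher and 17 lower (18.9% and 32.2% of all genes), and in SPT 6 were higher and 33 lower (16.9% and 31.4% of all genes).

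The median log2 ratio of the 22 replication members was 0.39 in SPG, against −0.09 for all genes, and 0.09 in Early-SPC, against −0.86 for all genes. In SPT it was −1.78, against −0.39 for all genes, and in Late-SPC −1.03, against −0.37. The SSC median was −0.83, against −0.57 for all genes and −0.60 for all members. With genes of 0 UMIs set to the 3 UMIs that a count of 0 allows, the medians of replication members and of all genes were −0.83 and −0.31 in SSC, 0.09 and −0.67 in Early-SPC, and −1.72 and −0.37 in SPT. By role, licensing members were higher against lower in 1 against 5 of 12 in SSC, 6 against 2 in SPG, 3 against 4 in Early-SPC, 1 against 6 in Late-SPC and 1 against 8 in SPT. Of 10 measured fork members, 0 were higher and 5 lower in SSC, 2 and 1 in SPG, 3 and 2 in Early-SPC, 1 and 5 in Late-SPC, and 1 and 8 in SPT. The shares of all genes given above for each type stand beside these counts by role too.

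Markers of other cells stood beside these values. Barcodes typed SSC held 339 UMIs (2214 CPM) of an endothelial (EC) marker list, 12 of 13 genes with a UMI, and 192 UMIs (1254 CPM) of the SPG marker list, 14 of 18 genes with a UMI. Barcodes typed SPG held 5805 CPM of a myoid cell (MC) marker list, whose 10 genes all had UMIs, beside 2115 CPM of the SPG list. The MC list was also at 2148 CPM in Late-SPC and 3358 CPM in SPT, against 1457 CPM in SSC, and in SPT a T/NK list had 1046 CPM and a macrophage list 913 CPM. In the deeper SPG-like cells of the yak library, the EC list had 187 CPM, the MC list 678 CPM and the SPG list 3470 CPM. In the SPT-like cells of that library, the macrophage list had 1426 CPM, above its level in typed SPT. The T/NK list had 179 CPM and the MC list 433 CPM there. The macrophage list thus did not set the typed SPT apart from SPT-like cells. The part of free RNA, or of cells other than germ cells, in the levels of these types was not tested.

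Of the 6 G1 and G1/S members, only CCNE2 and CDK6 had enough UMIs over the types to be counted. CCNE2, an E-type cyclin that starts S phase, had 13.1 CPM in SSC, 11.3 CPM in SPG, 309 CPM [248–381] in Early-SPC, 54.6 CPM in Late-SPC and 18.4 CPM in SPT. Its log2 ratio was 3.50 [3.00 to 4.13] in Early-SPC and −3.07 in SPG. CDK6, a kinase of the D-type cyclins, was lowest in Early-SPC, with 0 UMIs in Early-SPC and 19.6 to 75.6 CPM in the other types. CCND1 had 9 of its 16 UMIs in SPG.

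The B-type cyclins CCNB1 and CCNB2 had no matching symbol and are not among the members. Of the G2 and M phase members, CCNA1 stood out in Late-SPC, where it gave 92 of 105 UMIs. It had 193 CPM [156–237] there and 6.53, 8.08, 3.51 and 18.4 CPM in SSC, SPG, Early-SPC and SPT, from 1 to 5 UMIs. Its log2 ratio of 4.27 [3.54 to 5.42] in Late-SPC was beyond that of the next gene there, CDC20. CCNA2, the cyclin A of mitotic cells, had 12 UMIs in SPG and at most 1 in any other type. CDC25C, a phosphatase that activates CDK1, had 12 UMIs in Early-SPC, 3 in Late-SPC, 4 in SPT and 0 in SSC and SPG.

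APC/C members reached their highest sum in Late-SPC, at 586 CPM [519–659], against 209 CPM in SSC, 249 CPM in SPG, 225 CPM in Early-SPC and 398 CPM in SPT. CDC20, the activator of the complex, had 250 CPM [207–299] in Late-SPC and 13.1 to 48.5 CPM in the other types, a log2 ratio of 2.59 [2.14 to 3.11]. The small subunit CDC26 followed with 174 CPM in Late-SPC and 136 CPM in SPT, against 3.51 CPM in Early-SPC. CDC27, a scaffold subunit, went the other way, with 158 CPM in Early-SPC (log2 ratio 2.17) and 3.68 CPM in SPT (−3.76). CDC14A, a phosphatase of mitotic exit, had 180 CPM in SPT and 3.51 to 45.7 CPM elsewhere, a log2 ratio of 3.69 [3.01 to 4.62]. Of 5 measured APC/C members, 2 were higher and 1 lower in Late-SPC, and 0 were higher and 3 lower in SPG. Of all genes, 18.9% were higher and 32.2% lower in Late-SPC, and 16.1% and 27.3% in SPG.

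Members outside the cell cycle itself also differed between types. CCNL1, a cyclin of RNA splicing, had 686 CPM in SSC and 94.8 to 284 CPM in the other types (log2 ratio 1.66 [1.33 to 1.98]). CDC42BPA, a kinase that acts below the GTPase CDC42, had 418 CPM in SSC (1.47 [1.05 to 1.87]), and it was also higher in EC-like than in other cells of the yak library (367 against 151 CPM). In Early-SPC, CDC73 of the PAF1 transcription complex had 421 CPM (2.98) and CDK12, a kinase of RNA polymerase II, 474 CPM (2.27). Transcription members were higher in 5 and lower in 2 of 9 in Early-SPC, and in 1 and 5 in SPT. Of all genes, 18.9% were higher and 47.8% lower in Early-SPC, and 16.9% and 31.4% in SPT.

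In Late-SPC the centrosomal protein gene CDK5RAP2 had 433 CPM (log2 ratio 2.13) and the splicing factor gene CDC5L 701 CPM (1.46). In SPT, CDC34, a ubiquitin-conjugating enzyme, had 390 CPM against 7.02 to 109 CPM in the other types (2.73 [2.33 to 3.17]), and the cyclin Y paralog CCNYL1 62.6 CPM (1.99). CDK5R1, which activates CDK5, had 13 UMIs in SPT and 0 in each of the other 4 types. In SPG, CDC37L1, a relative of the chaperone partner CDC37, had 181 CPM (1.38) and the APC/C subunit CDC16 103 CPM. Of 9 other cyclins and kinases, 2 were higher in SSC, 1 in SPG, 0 in Early-SPC, 3 in Late-SPC and 1 in SPT. Of 4 CDC42 genes, 1 each was higher in SSC, SPG and Early-SPC and 0 in Late-SPC and SPT, and of the 8 members with other symbols, 1, 2, 2, 2 and 1 were higher in the order of the types. Of all genes, 11.3% were higher in SSC, 16.1% in SPG, 18.9% in Early-SPC, 18.9% in Late-SPC and 16.9% in SPT.

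Each member peaked in some type, and 18 of 60 had their highest level in Early-SPC, 13 in Late-SPC, 12 in SPG, 9 in SSC and 8 in SPT. For the 22 replication members these counts were 7 in SPG, 7 in Early-SPC, 3 in Late-SPC, 3 in SPT and 2 in SSC. The 60 members were thus highest in Early-SPC in 30.0%, in Late-SPC in 21.7%, in SPG in 20.0%, in SSC in 15.0% and in SPT in 13.3%, beside 23.7%, 22.2%, 17.6%, 17.8% and 18.6% of all 8116 genes.

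Genes of the same pathways that are not members followed the order of the replication members only in part. Of 30 other replication genes measured, 0 were higher and 16 lower in SSC, 8 and 6 in SPG, 11 and 10 in Early-SPC, 7 and 11 in Late-SPC, and 1 and 21 in SPT. Of all 8116 genes, 11.3% were higher and 39% lower in SSC, 16.1% and 27.3% in SPG, and 18.9% and 47.8% in Early-SPC. These shares were 18.9% and 32.2% in Late-SPC and 16.9% and 31.4% in SPT. RRM1 (log2 ratio 3.45), a subunit of the enzyme that makes deoxynucleotides, and PRIM2 (3.38), a primase subunit, led in Early-SPC. DSCC1 (3.35), which helps to load PCNA, and the licensing factor CDT1 (2.78) led in SPG, and RNASEH2A (2.58) and DBF4 (2.37), the partner of CDC7, in Late-SPC. RPA3 (0.75) and LIG1 (−0.03) led in SSC and RFC4 (1.16) and CHAF1B (0.17) in SPT.

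Of 32 other mitosis genes, 0 were higher and 28 lower in SSC, 5 and 8 in SPG, 16 and 6 in Early-SPC, 7 and 10 in Late-SPC, and 2 and 23 in SPT, beside the same shares of all genes. For the mitosis genes, CPM were also summed. Their summed level was 751 CPM in SSC, 4126 CPM in SPG, 7139 CPM in Early-SPC, 3603 CPM in Late-SPC and 1395 CPM in SPT. Early-SPC was thus highest and SPG next, like for the replication members, but SSC was lowest in place of SPT. The leading genes were TTK (3.39) and NCAPG (3.10) in Early-SPC, CKS2 (2.47) and AURKA (2.42) in Late-SPC, KIF2C (2.34) and KIF15 (1.11) in SPT, CENPF (2.1) and HMMR (1.5) in SPG, and NDC80 (−0.09) and CENPE (−0.60) in SSC.

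Of 18 inhibitors, checkpoint genes and transcription factors, 1 was higher and 12 lower in SSC, 5 and 6 in SPG, 6 and 9 in Early-SPC, 4 and 10 in Late-SPC, and 2 and 9 in SPT. The shares of all genes given above for the same types stand beside these counts. The one higher in SSC was CDKN1B (1.84), an inhibitor of G1 kinases, and LIN54 followed at 0.35. E2F1 (4.60), the S phase transcription factor, and WEE1 (3.20), which restrains CDK1, led in SPG, RBL1 (3.50) and ATM (2.77) in Early-SPC, CDKN2C (2.28) and CDKN3 (1.74) in Late-SPC, and TFDP2 (2.73) and CDKN3 (1.74) in SPT.

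The deep germ-like cells, which carry no type from the study, offered larger counts. Of 84 members measured between them and the typed germ cells, 7 were higher, where 14.4% of all 13236 genes were, and 5 lower, where 11.1% were. With every cell weighted equally, 15 were higher and 2 lower, or 17.9% and 2.38%, beside 12.2% and 10.6% of all genes, so that the share of higher members went from below to above that of all genes. Those higher were CCNA1 (log2 ratio 1.87), CDK5R1 (1.47), CDK2 (1.18), CDK5RAP2 (1.14), CDC20B (1.13), CDC34 (1.08) and CDC20 (1.03). Those lower were CCNQ (−2.81), CCNE2 (−1.78), CCNL1 (−1.32), POLA1 (−1.14) and CDC45 (−1.01), and the median of 25 replication members was 0.31, against 0.22 for all genes. Depth and stage of the cells differ between these sets and cannot be told apart. CCNL1 was also above its SSC level in somatic cells such as macrophage-like cells (1074 CPM).

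Germ-like cells of the yak library fell into clusters that were made without the members. They were 289 SPG-like, 47 early SPC-like, 100 late SPC-like and 161 SPT-like cells, a cluster 14 with 112 cells, and 2 shallow clusters. Cluster 14 was left without a stage name, with 13 early and 5 late SPC markers enriched. Of its cells, 64 were typed Late-SPC and 0 Early-SPC by the study. The late SPC marker list had 7112 CPM in cluster 14 and the early SPC list 5784 CPM. The shallow clusters 1 and 6 (483 and 555 cells, medians of 986 and 1000 UMIs) held most of the barcodes typed by the study, such as 57 of 84 typed SSC in cluster 6. The SPG-like cluster held 0 of 84 typed SSC and 36 of 486 typed SPG. All germ-like clusters together held 57 of 84 typed SSC and 435 of 486 typed SPG. Among the genes that led cluster 6 over the other germ-like cells were ACTA2 of myoid cells and PECAM1 of endothelium. Cluster 1 held 180 of 261 typed Late-SPC and 206 of 224 typed SPT. It was led by RGS5, CXCL12, APOA1, MGP and SPARCL1, and had 0 enriched markers on each germ list. The replication sum was 3076 CPM [3028–3124] in SPG-like, 2319 CPM in early SPC-like, 1115 CPM in cluster 14, 565 CPM in late SPC-like and 391 CPM in SPT-like cells. It was thus highest in SPG-like cells, whereas among the study's types Early-SPC was highest.

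The early SPC-like cells carried the same set as the Early-SPC type, with which they share 31 barcodes. POLA1 had 444 CPM [385–510] in them and 96.9 CPM [88.6–106] in SPG-like cells, and CCNE2 338 CPM [287–396] against 22.7 CPM [18.8–27.2]. MCM6 had 312 against 132 CPM, ORC4 had 237 CPM and CDC45 161 CPM. MCM3 went the other way with 39.8 CPM [23.6–62.9] against 256 CPM [242–270], and MCM7 with 50.9 CPM [32.2–76.3] against 261 CPM [247–275]. The helicase subunits thus stood in different proportions in both clusters, with MCM6 above and MCM3 and MCM7 below their SPG-like levels in early SPC-like cells.

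Late SPC-like cells had 579 CPM [555–604] of CCNA1, 403 CPM of CDC20, 762 CPM of CDK5RAP2 and 1040 CPM of CDC5L. In the same cells WDHD1 was at 10.6 CPM [7.58–14.3] and POLA1 at 0.258 CPM from 1 UMI, while PCNA (98.4 CPM) and ORC4 (123 CPM) were above their SPG-like levels of 62.4 and 43.2 CPM. Cluster 14 had 288 CPM of CDC20, 635 CPM of CDK5RAP2, 76.0 CPM of CCNE2 and 64.1 CPM of CCNA1, between the early and late SPC-like values for CCNE2 and CCNA1. SPT-like cells had 586 CPM of CDC34, 285 CPM of CDC26, 148 CPM of CDC14A, 79.3 CPM of CDK5R1, 90.4 CPM of ORC1 and 89.1 CPM of POLE3, and 4.63 CPM of WDHD1. CCNA1 and CDC20 were lower in SPT-like than in late SPC-like cells, at 133 and 104 CPM.

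**Figure D3:**
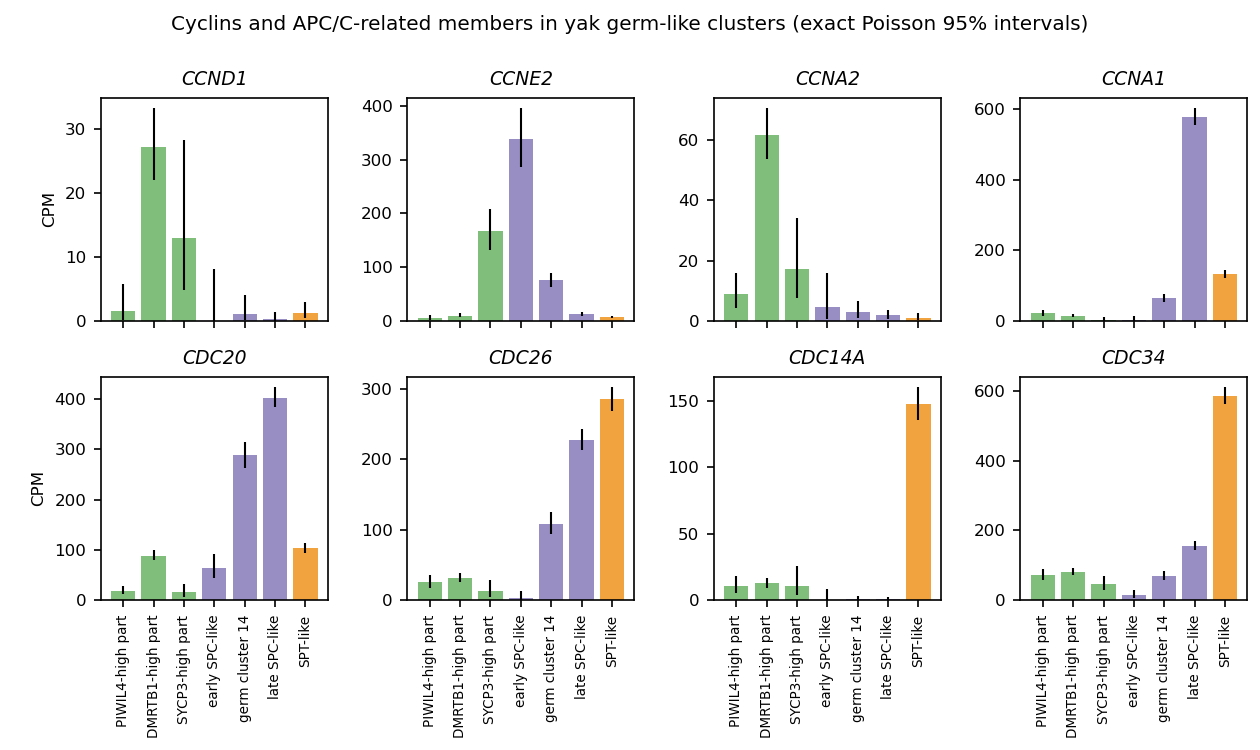
Levels in CPM (bars, linear axes from 0, exact Poisson 95% intervals) of 8 members in the yak SPG-like parts, in early SPC-like cells, germ cluster 14 and late SPC-like cells, and in SPT-like cells. They are cyclins (CCND1, CCNE2, CCNA2, CCNA1), APC/C and mitotic exit members (CDC20, CDC26, CDC14A) and the ubiquitin-conjugating enzyme CDC34, which is not counted among the APC/C members. CCNE2 is highest in early SPC-like cells (338 CPM), CCNA1 in late SPC-like cells (579 CPM), and CDC14A and CDC34 in SPT-like cells (148 and 586 CPM).

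Of 84 members with enough UMIs in these 5 clusters, 32 were highest in SPG-like cells, 20 in early SPC-like, 15 in late SPC-like, 12 in SPT-like cells and 5 in cluster 14, which is 38.1%, 23.8%, 17.9%, 14.3% and 5.95%, beside 31.1%, 17.7%, 16.7%, 22.6% and 12% of all 13045 genes. Of 25 replication members among them, 12 were highest in SPG-like and 8 in early SPC-like cells.

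A finer clustering of the SPG-like cells of the yak library, chosen after the data had been seen, gave 3 parts named by the marker that was high in each. PIWIL4 marks the most primitive spermatogonia, DMRTB1 spermatogonia on the way to differentiation, and SYCP3 the axis of meiotic chromosomes. The PIWIL4-high part had 61 cells (146 CPM of PIWIL4, 24.9 CPM of DMRTB1), the DMRTB1-high part 195 cells (282 CPM of DMRTB1, 15.6 CPM of PIWIL4) and the SYCP3-high part 33 cells (724 CPM of SYCP3). Replication sums were near each other, at 3075, 3010 and 3570 CPM, but their make-up differed. Without WDHD1 they were 1678 CPM in the PIWIL4-high, 2393 CPM in the DMRTB1-high and 2827 CPM in the SYCP3-high part.

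WDHD1 had 1397 CPM [1332–1464] in the PIWIL4-high and 617 CPM [591–644] in the DMRTB1-high part, a log2 ratio of 1.18. MCM7 was also above its DMRTB1-high level, with 397 CPM [363–434] against 229 CPM [214–246]. MCM3 was lower in the PIWIL4-high part, with 82.0 CPM [66.9–99.6] against 306 CPM [288–325], as were CDC6 (21.7 against 72.7 CPM) and GINS2 (29 against 122 CPM). The cyclins and kinase of dividing cells stood apart further. CCND1 had 1.61 CPM from 2 UMIs in the PIWIL4-high and 27.2 CPM in the DMRTB1-high part, and CCNA2 8.85 against 61.7 CPM. CDK1, the kinase of M phase, had 2.41 CPM from 3 UMIs against 17.7 CPM. TOP2A had 179 against 1069 CPM, and CDC20 had a log2 ratio of −2.20.

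Of 79 members measured, 5 were higher (18% of all genes) and 10 lower (9.79% of all genes) in the PIWIL4-high than in the DMRTB1-high part. Among 25 replication members 1 was higher, WDHD1, and 4 were lower, POLE4, GINS2, MCM3 and CDC6, with a median of −0.38, against 0.15 for all genes. In the SYCP3-high part, 10 of 77 members were higher (11.5% of all genes) and 11 lower (22.5% of all genes) than in the DMRTB1-high part. CCNE2 had 167 CPM [132–208] there against 9.84 CPM [6.82–13.8] (log2 ratio 3.95), CDC45 was higher by 2.25, CCNE1 by 2.36 and ORC4 by 1.33. CCNA2 (−1.77) and CDC20 (−2.47) were lower in the SYCP3-high part.

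Detection was compared at equal depth. Cells were thinned to 1000 UMIs and shallower cells left out. TOP2A was then detected in 1 of 77 typed SSC (1.30%), in 26.6% of 237 SPG and in 67.3% of 49 Early-SPC barcodes. It was detected in 50.7% [44.8–56.6] of the yak SPG-like cells (exact binomial interval), 74.5% of early SPC-like, 29.2% of cluster 14, 18.0% of late SPC-like and 1.86% of SPT-like cells, against 0.535% of yak EC-like cells, taken as the background. Before thinning, median depth was 16878 UMIs in SPG-like and 5100 UMIs in EC-like cells. Unthinned, the SPG-like share was 90.0%. WDHD1 was detected in 27.3% of typed SSC, 29.5% of SPG, 24.5% of Early-SPC, 3.05% of Late-SPC and 2.04% of SPT barcodes, and in 54.9% of yak SPG-like cells, against 1.39% of EC-like cells. CCNA1 was detected in 18.3% of Late-SPC barcodes, 46.0% of late SPC-like and 10.6% of SPT-like cells, against 0.107% of EC-like cells.

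Per cell, thinned to 5000 UMIs, the 26 replication members together had a median of 15 UMIs (quartiles 11 and 20, highest 40) in 249 yak SPG-like cells and of 11 (10 and 14, highest 24) in 41 early SPC-like cells. The median was 5.5 in cluster 14, 2 in late SPC-like, 2 in SPT-like and 1 in EC-like and MC-like cells. At least 10 of 5000 UMIs were reached by 81.9% of the yak SPG-like and 75.6% of the early SPC-like cells.

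**Figure D4:**
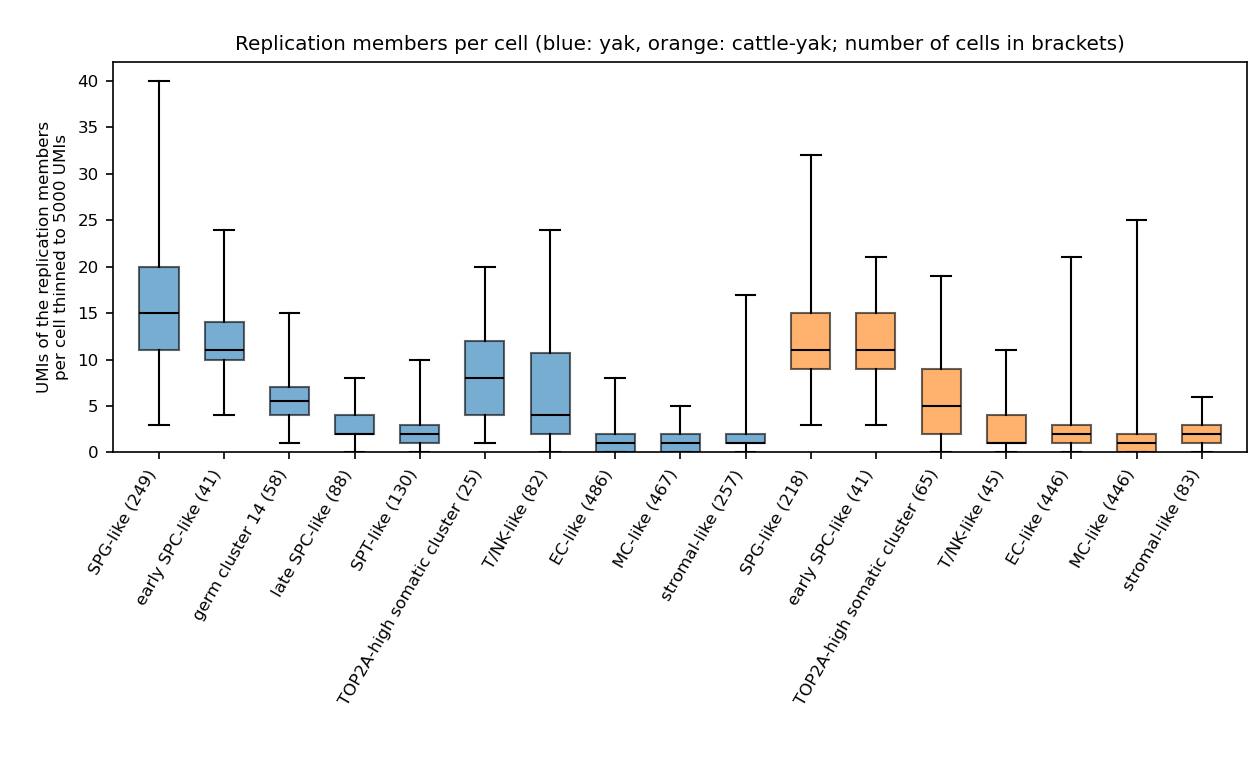
UMIs of the 26 replication members per cell after thinning to 5000 UMIs (boxes: quartiles with the median, whiskers: lowest to highest cell, cells in brackets), yak in blue and cattle-yak in orange. Medians are 15 in yak and 11 in cattle-yak SPG-like cells, and 1 or 2 in EC-like, MC-like and stromal-like cells.

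The cattle-yak library held SPG-like (234 cells, 200 of them deep) and early SPC-like cells (48 cells) and a cluster 20 of 49 cells, in which 12 early and 8 late SPC markers were enriched and which was left without a stage name for that reason. No cluster of it was named late SPC-like or SPT-like. In SPG-like cells, the replication sum was 2481 CPM [2440–2523] against 3076 CPM in the yak library, a log2 ratio of −0.31 [−0.34 to −0.28]. Median depth was 23647.5 UMIs per cell against 16878 in the yak library, and the mitochondrial share was 20.6% against 13.4%. Per cell at 5000 UMIs, the median was 11 (quartiles 9 and 15) in 218 cattle-yak cells against 15 in the yak cells, and 67.4% of cells reached 10 UMIs. TOP2A was detected in 35% [28.9–41.5] of thinned cattle-yak cells against 50.7% in yak, and in 93.2% unthinned.

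Of 82 members measured in SPG-like cells, 1 was higher in the cattle-yak library (3.6% of all 11521 genes) and 6 lower (9.44% of all genes). The one higher was CDK16, a kinase activated by cyclin Y and known from spermatogenesis, with 40.0 CPM from 225 UMIs against 7.56 CPM from 39 UMIs, a log2 ratio of 2.26 [1.91 to 2.93]. Lower were CCNE1 (10 against 58 UMIs, −2.14), CCNE2 (4.44 against 22.7 CPM, −2.12), CCNA2 (15.8 against 45.0 CPM, −1.45), MCM3 (109 against 256 CPM, −1.22), CDC6 (28.6 against 63.8 CPM, −1.13) and CCND1 (9.06 against 19.8 CPM, −1.05). CCND1 was at −0.94 when mitochondrial UMIs were left out of the totals, which moved the median of all genes from −0.20 to −0.08. Among cells under a mitochondrial share of 20% (96 against 260 cells), CDC6 was at −0.63 and CCND1 at −0.67, so that neither passed 2-fold. WDHD1 (724 against 816 CPM) and MCM7 (322 against 261 CPM) were within 2-fold, CDC42EP4 was at 0.98 and CDC42SE2 at 0.55. The median was −0.20 for all members, as for all genes, and −0.35 for replication members.

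The make-up of the SPG-like cells also differed between the libraries, and its part in these values was not tested. In the yak library most SPG-like cells lay in the DMRTB1-high part, whereas in the cattle-yak library 187 lay in a PIWIL4-high part (20.2 CPM of PIWIL4, 466 CPM of ZBTB16) and 47 in a DMRTB1-high part (224 CPM of DMRTB1). The names compare parts of the same library only, since PIWIL4 itself was at 146 CPM in the yak part. Other spermatogonial markers went both ways between the PIWIL4-high parts. MORC1 (3.47 against 125 CPM) and SPOCD1 (140 against 399 CPM) were lower in the cattle-yak than in the yak part. ZBTB16 (466 against 270 CPM) and NANOS3 (111 against 58.7 CPM) were higher. The cattle-yak parts differed from each other in the same direction as the yak parts in TOP2A, MCM3, CCNA2 and CDK1, but not in all respects. Their replication sums were 2364 CPM in the PIWIL4-high and 3268 CPM in the DMRTB1-high part. In yak these sums were near each other, at 3075 and 3010 CPM. WDHD1, higher in the yak PIWIL4-high part, was within 2-fold between the cattle-yak parts. TOP2A had 342 CPM in the PIWIL4-high and 1532 CPM in the DMRTB1-high part, MCM3 86.1 [78.1–94.7] against 267 CPM [230–307], CCNA2 9.18 against 60.5 CPM, and CDK1 5.51 against 48.1 CPM. Of 77 members, 8 were higher (21% of all genes) and 18 lower (9.75% of all genes) in the PIWIL4-high part, with 0 replication members higher and 8 of 24 lower.

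Between parts of the same name, no replication member differed by 2-fold between the libraries. For the PIWIL4-high parts the name does not show that the cells were alike, since PIWIL4 in the cattle-yak part (20.2 CPM) was near its level in the yak DMRTB1-high part (15.6 CPM). In the DMRTB1-high parts, MCM3 had 267 CPM in cattle-yak against 306 CPM in yak, CCNA2 60.5 against 61.7 CPM, CDC6 104 against 72.7 CPM and WDHD1 653 against 617 CPM. Of 78 members there, 3 were higher (2.21% of all genes), namely CDK16 (2.08), CCNQ (1.77) and CDK1 (1.40), and 4 lower (13.8% of all genes), namely CCNG1, CCNYL1, CDC42EP4 and CCNY. In the PIWIL4-high parts, MCM3 had 86.1 against 82.0 CPM and CCNA2 9.18 against 8.85 CPM, while WDHD1 had 734 against 1397 CPM. Of 76 members there, 3 were higher (4.83% of all genes), CDK16 (1.79), CDC42EP3 (1.52) and CCND1 (1.41, from 2 UMIs in yak), and 7 lower (15.4% of all genes), CCNE1 (−2.46), CCNA1 (−1.52), CDK14, CDK2AP1, CDC16, CCNI and CDK17. Medians of replication members were 0.17 between the DMRTB1-high parts and −0.15 between the PIWIL4-high parts, beside −0.17 and −0.28 for all genes. CDK16 was thus higher in the cattle-yak library in all 3 comparisons, which share cells. The direction was not limited to SPG-like cells, although CDK16 stayed within 2-fold in T/NK-like (log2 ratio 0.92) and MC-like cells (0.67). Over all cells, SPG-like cells included, CDK16 had 2047 UMIs in the cattle-yak and 1431 UMIs in the yak library, although the yak library had more UMIs in total. MCM3, CCNA2 and CDC6 were lower over all SPG-like cells and within 2-fold in both pairs of parts. Of the 117 UMIs of CCNE2 in the yak SPG-like cells, 77 came from the 33 cells of the SYCP3-high part, and the cattle-yak SPG-like cells gave no such part.

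**Figure D5:**
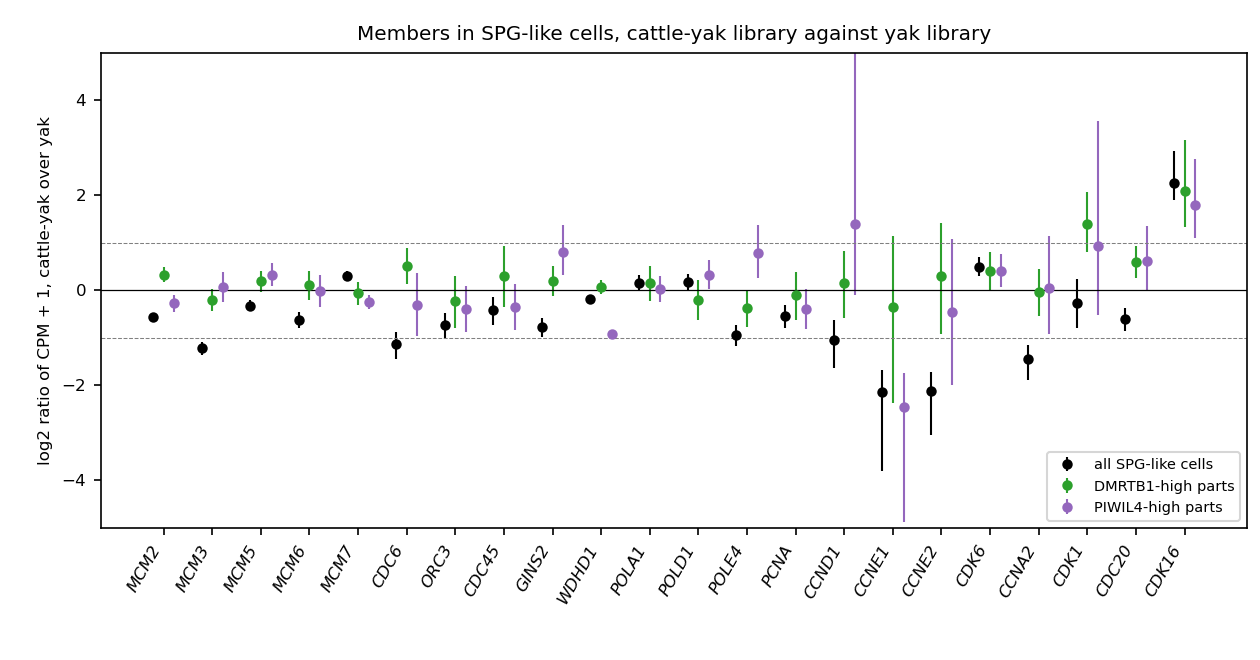
Log2 ratio of CPM + 1, cattle-yak over yak, of 22 members in all SPG-like cells (black), in the DMRTB1-high parts (green) and in the PIWIL4-high parts (purple), with exact 95% intervals of the plain ratio, some of which run past the axis, and dashed lines at 2-fold. MCM3 lies at −1.22 over all cells and near 0 in both pairs of parts, while CDK16 lies above 1 in all 3.

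In early SPC-like cells, the replication sum was 2179 CPM in cattle-yak and 2319 CPM in yak, a log2 ratio of −0.09 [−0.22 to 0.04] that includes 0. The set of the early SPC-like cells was present in both libraries, with CCNE2 at 253 CPM [208–305] in cattle-yak against 338 CPM [287–396] in yak, POLA1 at 249 CPM [204–300] against 444 CPM [385–510], MCM6 at 189 against 312 CPM and CDC45 at 125 against 161 CPM. Per cell, the median was 11 of 5000 UMIs in both libraries. CDC25C had 54.8 CPM [35.1–81.5], from 24 UMIs, in the cattle-yak cells. Cluster 20 had 158 CPM of CDC20, 538 CPM of CDK5RAP2, 80.7 CPM of ORC6 and 105 CPM of CCNE2, and a replication sum of 1214 CPM.

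Summed over cells, somatic cells had low levels of the replication members, 334 CPM in the yak and 381 CPM in the cattle-yak library. These sums leave out 1 cluster in each library that was chosen after its TOP2A level had been seen. The yak one (45 cells, part of the T/NK-like class) had 1799 CPM of replication members, with PCNA at 218, MCM7 at 328, POLA1 at 145 and CDC20 at 137 CPM. The cattle-yak one (88 cells, no name) had 1174 CPM, with PCNA at 87.4, MCM3 at 102, CDC6 at 36.0, CDC20 at 211, CCNA2 at 48.3 and CDK1 at 26.7 CPM. TOP2A was detected in 68.2% and 55.2% of their thinned cells.

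Somatic classes differed more in other members. In the yak library, CDC25B was at 21.4 CPM in lymphatic EC-like cells against 0.867 CPM in the other cells (log2 ratio 3.58), and CCNG2, a cyclin linked to cell cycle arrest, at 55.1 against 12.5 CPM in T/NK-like cells (2.05). CDC42EP3, an effector of CDC42 at the cytoskeleton, was at 108 against 30.4 CPM in EC-like cells (1.79). CDK3 was at 15.3 against 4.68 CPM in stromal-like cells (1.52), and CCNG1 at 127 against 55.4 CPM in macrophage-like and 119 against 51.9 CPM in MC-like cells. In pericyte-like cells the leading member, CDC42EP4, was within 2-fold of the other cells (0.98). In the cattle-yak library, CDC25B led in T/NK-like (2.05), CDC42EP4 in EC-like (1.54), CDK14 in stromal-like (1.44), CDK6 in MC-like (1.09), CCND1 in lymphatic EC-like (1.09), CCNG2 in macrophage-like (1.18) and CCNG1 in pericyte-like cells (0.45), and CDC34 in a small SC-like class (1.86).

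Between libraries, MCM3 and MCM5 were higher in cattle-yak MC-like and EC-like cells, and MCM2 in MC-like cells. In MC-like cells, MCM5 had 27.2 CPM from 122 UMIs against 7.09 CPM from 28 UMIs (log2 ratio 1.80 [1.34 to 2.59]), MCM3 a ratio of 1.28 and MCM2 of 1.28. In these cells 4 of 67 members were higher (3.03% of all genes) and 0 lower (4.94% of all genes). In EC-like cells, CCNE2 (1.11), MCM3 (1.07) and MCM5 (1.04) made up the 3 of 73 members that were higher (5.17% of all genes), and CDC42EP3 (−1.07) the 1 that was lower (3.68% of all genes). Replication sums were higher by log2 ratios of 0.49 in MC-like and 0.40 in EC-like cells, and TOP2A by 1.64 and 1.61. Levels there remained far below those of SPG-like cells, with 322.9 and 382.7 CPM of replication members in cattle-yak. Per MC-like cell, the mean of replication members at 5000 UMIs was 1.66 in cattle-yak and 1.13 in yak. How much of this difference came from few cells was not tested. At 5000 UMIs per cell, the quartiles (0, 1 and 2 UMIs of replication members) were the same in both libraries, and 8 of 446 cattle-yak cells had at least 10 (highest 25), against 0 of 467 yak cells (highest 5). In EC-like cells the quartiles were 1, 2 and 3 in cattle-yak and 0, 1 and 2 in yak, and 7 of 446 cells against 0 of 486 had at least 10.

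In stromal-like cells 2 of 70 members were higher (2.62% of all genes) and 5 lower (10.6% of all genes), among them CDC42EP3 (−2.85), CCND1 (−1.49) and CCNYL1 (−1.06). In T/NK-like cells 2 of 75 were higher (4.04% of all genes), GINS2 (1.00) being one, and 2 lower (9.02% of all genes), CDK17 (−1.16) being one. In lymphatic EC-like cells 1 of 63 was higher (2.79% of all genes) and 3 lower (11.9% of all genes), with CDC25B at −1.43. In macrophage-like cells 1 of 41 was higher (3.13% of all genes) and 3 lower (9.06% of all genes), and in pericyte-like cells 1 of 42 was higher (2.98% of all genes) and 2 lower (9.48% of all genes). The median of replication members was above that of all genes in each of the 7 classes. This gap was largest in MC-like cells (0.45 against −0.11). For the T/NK-like class, replication sums gave −0.02 [−0.11 to 0.07] on the log2 scale, a counting interval that includes 0. The 2 sides of the T/NK-like comparison are not alike in make-up. Its yak side holds the TOP2A-high cluster (45 cells), whereas the cattle-yak TOP2A-high cluster (88 cells) has no name and lies outside all classes. The part of the yak cluster in the T/NK-like values was not tested.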

How the data were processed

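The authors deposited unnormalized UMI counts for every gene in every called barcode, made with Cell Ranger on the yak genome (build BosGru3.0). The matrix header names version 5.0.0 and the submitters' processing notes 2.1.1. Members and gene lists were chosen with earlier results of these data known.

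Both libraries were clustered apart, without the 93 members, the pathway genes and mitochondrial genes, on 2000 variable genes, 30 components and 15 neighbours (scanpy 1.11.5, Leiden of igraph 0.11.9, resolution 1, seed 0, Python 3.11.15, numpy 2.4.6, scipy 1.17.1, pandas 2.3.3, scikit-learn 1.9.0). Cells with a mitochondrial share of 30% or more were left out. No cell was left out for few genes or UMIs. Cells above the upper limits were kept as deep cells. A cluster was named from 3 markers with a log2 ratio of at least 1 and a UMI in 10% of its cells. It stayed unnamed if another list had as many such markers, or more of the 10 leading genes of the cluster. A germ cluster with a close second list stayed unnamed, a rule added after seeing the data. Doublet calling by Scrublet has not worked on the yak library, with 0 calls among 11991 cells, and gave 251 calls (2.81%) in cattle-yak; no cell was removed. Cells were kept apart by library.

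Summed counts were scaled to CPM, 1 CPM was added before log2 ratios, genes needed 20 summed UMIs, and 2-fold counted as a difference. Intervals are exact, at 95%. The ratio and interval steps were tested on simulated data. Named were all replication members with enough UMIs, and of other roles the 3 leading members of each type or class with at least 20 UMIs, the 3 largest and smallest between libraries with at least 50 UMIs, WDHD1, CCNA1, TOP2A, and the 2 leading genes of each pathway list in each type. Other genes were named after their values were seen. Genes without a matching symbol, among them CCNB1, CCNB2, MCM4, CDK4 and CCND2, and promoter sequences were not analysed here. Alternatives changed the filter, the fold limit, the added CPM, the weight of cells, the mitochondrial limit and denominator, the resolution, the thinning depth and the cells with high Scrublet scores. Figures were drawn with matplotlib 3.10.9.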

Additional observations from a re-analysis of the deposited data

Results flagged for a closer look

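The direction of CCNE2, the E-type cyclin of S phase entry, differed between cell classes when the cattle-yak library was set against the yak library. Its log2 ratio was 1.11 in EC-like and 1.13 in MC-like cells, and −2.12 in SPG-like cells. In the yak SPG-like cells, 77 of 117 UMIs of CCNE2 lay in the 33 cells of the SYCP3-high part. The cattle-yak SPG-like cells gave no such part, and other cattle-yak cells were not divided in this way. The same held for the helicase subunit MCM3, at 1.07 in EC-like, 1.28 in MC-like and −1.22 in SPG-like cells. Within SPG-like parts of the same name, MCM3 had 267 CPM in cattle-yak against 306 CPM in yak (DMRTB1-high) and 86.1 against 82.0 CPM (PIWIL4-high). With 1 library on each side, these differences between classes were not tested.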

How the results depend on the processing

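Outside the parts of the same name, no ratio or median changed sign. Between the libraries, the median of replication members was −0.35 over all SPG-like cells and 0.17 between the DMRTB1-high parts. Ratios of single members, such as CCND1, also changed sign in a pair of parts. The TOP2A share of SPG-like cells, higher in yak after thinning, was lower in yak without thinning (90.0% against 93.2%). Medians of replication members, main value first, went from −0.83 to −1.23 in SSC, 0.39 to 0.22 in SPG, 0.09 to 0.49 in Early-SPC and −1.03 to −1.31 in Late-SPC with at least 50 UMIs, and to 0.29 in Early-SPC without the filter. With 10 CPM added they were −0.75 in Late-SPC and −1.33 in SPT (−1.78 before), and with equal weight of cells 0.59 in SPG and −1.23 in SPT. Without the filter on UMIs, 38 members were lower in SSC (23 before), 22 higher and 18 lower in SPG (12 and 10), 44 lower in Early-SPC (27), 17 higher and 30 lower in Late-SPC (11 and 17), and 11 higher in SPT (6), since more genes were counted. With at least 50 UMIs, 3 were higher in SPT, since fewer were counted. At 1.5-fold, 18 were lower in SPG and 26 in Late-SPC. With equal weight, 15 were higher and 2 lower in deep germ-like cells (7 and 5). In SPG-like cells, 2 members instead of 1 were higher in the cattle-yak library without mitochondrial UMIs, with equal weight or under a mitochondrial share of 20%, and 3 in either pair of parts of the same name, an alternative added after seeing the data.

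The replication sum of all yak germ-like cells (1444 CPM) was 1549 without mitochondrial UMIs, 1257 with equal weight and 1388 under the 20% limit. That of cattle-yak (2394 CPM) was 2997 without mitochondrial UMIs, 2259 with equal weight, 2472 without the 10% of highest Scrublet scores and 2343 at resolution 2. G2 and M phase sums were 226 CPM in yak, with 243, 116, 238 and 235 CPM without mitochondrial UMIs, with equal weight, without high Scrublet scores and at resolution 0.5, and 48.1 CPM in cattle-yak, with 60.2 CPM without mitochondrial UMIs and 54.8 CPM with equal weight. The G2 and M phase list holds no B-type cyclin. Its yak sum came mostly from CCNA1 (3160 UMIs in the whole yak and 88 in the whole cattle-yak library). At 2000 UMIs the TOP2A share was 63.8% in yak and 52.6% in cattle-yak (50.7% and 35% at 1000 UMIs). Where no reason is named, the cause was not tested. Depth limits the typed germ cells most, with 141 replication UMIs in SSC.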
